A study of Astyanax mexicanus with 12 samples.

Results

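The genes described here are those of fatty acid oxidation and ketone metabolism in the liver of the Mexican tetra, Astyanax mexicanus, a fish with an eyed river (surface) form and eyeless cave forms. They were chosen by name from a list of 43 genes, of which 42 matched 1 row each of a table of 27420 genes and 40 were high enough to be tested. The unmatched name is cpt2, which was dropped. The study compared the liver transcriptomes of 4 groups of adult fish, each with 3 libraries: wild-caught cavefish (titled Pachón), wild-caught surface fish, lab-reared cavefish (also titled Pachón) and lab-reared surface fish. All fish were fasted for 12 h before dissection, so each value below is a fasted one, and no fed group is part of the comparison. Form and environment are whole-animal labels: a difference between forms covers everything that separates the cave and surface stocks used, and a difference between wild-caught and lab-reared fish covers everything that differed between field and lab. The labels give no sex, age in years, capture site or batch. They also leave unsaid whether each library came from a separate fish, so the p-values measure the spread between libraries, which may be partly technical.

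During fasting, vertebrate liver takes up fatty acids released from fat stores, links them to coenzyme A, and moves long chains into mitochondria through the carnitine shuttle. There beta-oxidation shortens the chain in a repeated cycle of dehydrogenation, hydration, a second dehydrogenation and thiolysis, passing electrons to the respiratory chain and yielding acetyl-CoA, which the liver can turn into ketone bodies for other tissues. Peroxisomes run a parallel cycle on very long and branched chains, and nuclear receptors of the PPAR family switch on many of these genes. The roles given below are those known from mammals.

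The values are TPM, a length-normalized unit of transcript abundance, which state a transcript's share of each library and keep no record of sequencing depth, so depth behind a value is unknown. Members differed widely in level. Averaged over the 12 libraries, 8 members exceeded 100 TPM, 27 lay between 5 and 100 TPM, 5 between 1 and 5 TPM and 2 under 1 TPM. The 2 lowest, acsl3a and oxct1a, reached at most 0.05 and 0.53 TPM and were not tested. Several members are named as copies of each other (hadhaa and hadhab, scp2a and scp2b, the cpt1 genes), and RSEM estimates how reads shared by such copies are divided, so the split within a set is uncertain.

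Libraries of surface fish stood apart from each other on these genes. Surface fish libraries of 1 group differed more than cave libraries of 1 group did: the median SD of the 40 members on the log2(TPM + 1) scale was 0.439 in wild cave, 1.11 in wild surface, 0.209 in lab cave and 0.861 in lab surface libraries, beside 0.310, 0.450, 0.247 and 0.390 over all 12895 genes tested. Wild surface 3 was the highest of its 3 libraries for 33 of the 40 members (28.3% of all genes) and wild surface 1 the lowest for 29 (29.6% of all genes). Lab surface 2 was the highest of its 3 for 36 members (57.3% of all genes). Transcripts of 20 of 24 listed hepatocyte genes were found and summed to between 101698 and 178670 TPM in every library, with wild surface libraries lowest at 101698 to 111304 TPM. Single genes did not all follow that order. fabp10a was at 31927, 11055 and 27425 TPM in wild surface libraries, against 39098, 15205 and 48764.5 TPM in lab surface libraries. fgb was at 20273, 21895 and 8096 TPM in wild surface libraries, against 8093, 7359 and 3434 TPM in lab surface libraries. Sums of other cell type lists also differed between groups. The macrophage list (13 of 21 found) summed to 46.7 to 95.2 TPM in wild cave libraries and 131 to 322 TPM in the rest. Of its genes, slc40a1 kept that order, at 9.26, 13.6 and 12.7 TPM in wild cave libraries and 26.9 to 161 TPM in the rest. coro1a kept it too, and the others overlapped. Among these, cd74a was at 21.4, 49.3 and 30.7 TPM in wild cave libraries, against 31.4, 4.28 and 20.4 TPM in lab surface libraries. The red blood cell list (7 of 15) summed to 24.8 to 63.3 TPM in wild surface libraries and 104 to 365 TPM in the rest. In wild cave libraries the red blood cell sum was mostly hemgn, at 129, 88.2 and 155 TPM. The other genes found of that list overlapped between the wild groups. Among them, hbba2 was at 3.61, 5.71 and 13.7 TPM in wild cave libraries and 2.96, 16.4 and 13.5 TPM in wild surface libraries. Lists for lymphocytes (11 of 13 found), endothelial and stellate cells (18 of 19), bile duct cells (10 of 12) and exocrine pancreas (5 of 19) ranged over 1.85 to 19.5, 26.5 to 94.1, 327 to 1657 and 82.8 to 6157 TPM. In wild surface 1 and 2 the lymphocyte sum was mostly cd3eap, at 12.3 and 10.2 TPM, which is not an established lymphocyte marker. The other genes found of that list were at or under 2.45 TPM in every library, so its sum is a weak measure of lymphocytes. The part of these cell types in the results below was not tested, and in whole liver fewer cells of a type and less RNA per cell cannot be told apart.

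The members together took a smaller share of TPM in wild-caught than in lab-reared livers. Their summed share of all TPM was 0.134, 0.119 and 0.138% in wild cave libraries, 0.0685, 0.0854 and 0.216% in wild surface libraries, 0.325, 0.283 and 0.298% in lab cave libraries and 0.219, 0.542 and 0.28% in lab surface libraries. Every wild library lay below every lab library, though wild surface 3 and lab surface 1 were close together. The gap in cavefish depended on the scale. When each library was divided by a median-of-ratios factor, the shares became 0.233, 0.171 and 0.201% in wild cave libraries, against 0.252, 0.207 and 0.242% in lab cave libraries, and these 2 groups then overlapped. Surface libraries after the same scaling had 0.0626, 0.0791 and 0.227% when wild and 0.199, 0.388 and 0.287% in the lab, and overlapped through wild surface 3. The factors averaged 0.651 in wild cave, 1.04 in wild surface, 1.3 in lab cave and 1.16 in lab surface libraries, so the wild cave libraries are the ones that this choice moves most.

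**Figure D1:**
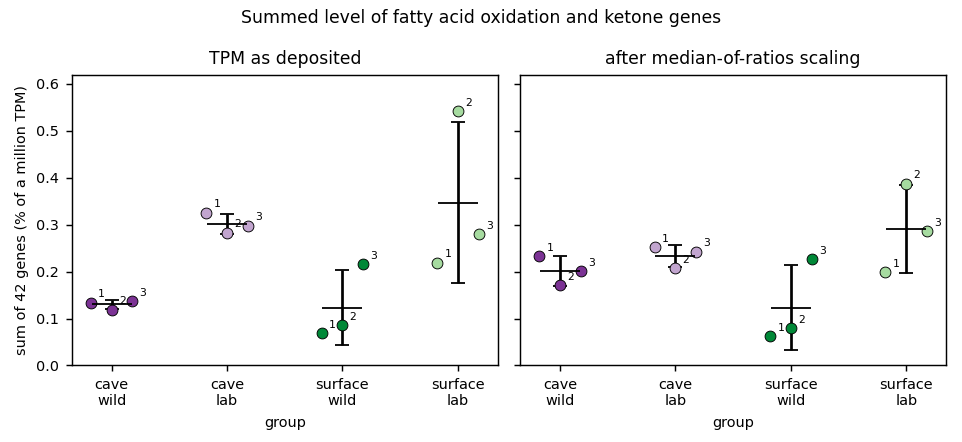
Summed TPM of the 42 members found, as a percentage of all TPM in each library, by group and replicate number. The 3 wild cave libraries sit at 0.119 to 0.138%, the 3 lab cave libraries at 0.283 to 0.325%, and the surface libraries spread more widely, with wild surface 3 at 0.216% and lab surface 2 at 0.542%.

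**Figure D2:**
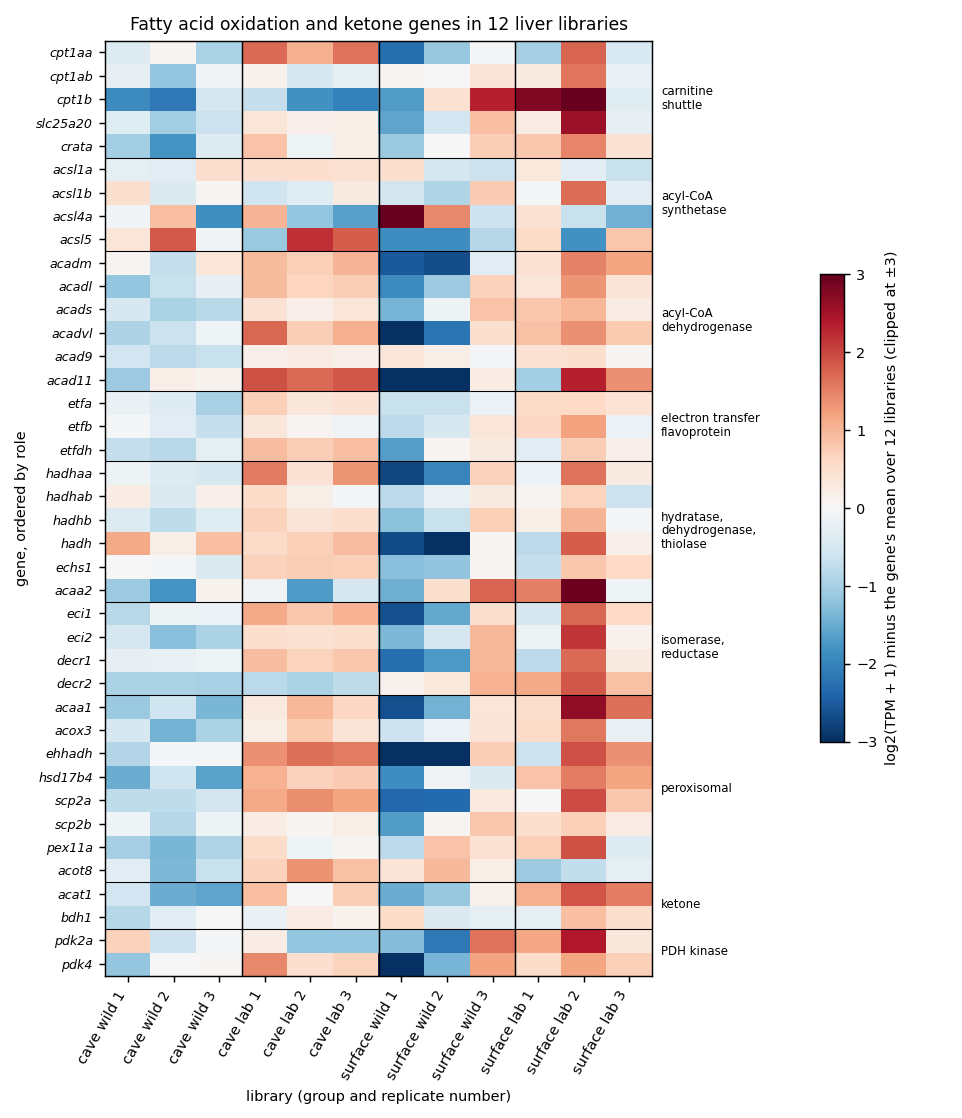
Level of each tested member in each library as log2(TPM + 1) minus that member's mean over 12 libraries, with members grouped by role. Lab surface 2 is high across most rows and wild surface 1 and 2 are low across most rows, while the 3 libraries of each cave group resemble each other.

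Wild cave and wild surface livers differed in 5 of the 40 members. The mitochondrial enzymes acadm and hadh were higher in wild cave libraries, and decr2, acot8 and acad9 were lower. Here and below a member is called higher or lower where limma's moderated test on log2(TPM + 1), adjusted by the Benjamini-Hochberg method over all 12895 genes, gave an adjusted p under 0.05. The higher members make 5% of 40 and the lower ones 7.5%, beside 5.13% of all genes called higher and 26.5% called lower in this comparison. The median log2 difference was -0.03 over members and -0.46 over all genes. With median-of-ratios values the all-gene median moved to -0.03 and the member median to 0.59. On that scale acadm, hadh and the acyl-CoA synthetase acsl5 were called higher and decr2 alone lower, beside 10.1% and 7.82% of all genes. The count moved with the library left out: without wild surface 3, 15 members were called, 11 higher and 4 lower. Leaving out wild cave 1, 2 or 3 gave 3, 1 and 2 calls, and leaving out wild surface 1 or 2 gave 2 and 1. These and later counts with a library left out or a block are given without the share of all genes called in the same fit. They therefore do not show whether members moved more than all genes did. With wild surface 3 as the lone library of its group, whose spread is then assumed to be like that of the others, decr2 was the 1 call left.

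Lab cave and lab surface livers differed in 2 members: acot8 was higher and decr2 lower in lab cave libraries. That is 2.5% of members in each direction, beside 5.26% of all genes higher and 2.30% lower. With median-of-ratios values the same 2 members were called, beside 3.50% and 2.42% of all genes. The member median was -0.08 and the all-gene median 0.10 on the log2 scale. The acot8 call was lost without lab cave 2 or lab surface 1 (adjusted p = 0.0561 to 0.0565), which left decr2 as the 1 call in each case. Without lab surface 2 the count was 3, with cpt1aa added, and without lab surface 3 it was 3, with cpt1b added.

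Wild cave livers had lower levels than lab cave livers for 9 members (cpt1aa, acad9, etfa, etfdh, acox3, hsd17b4, scp2a, acot8 and acat1), and no member was called higher. Those 9 are 22.5% of members, beside 34.3% of all genes called lower and 1.51% called higher, so the share of members called was below the background. Of the 40 members, 36 had negative log2 differences, and 26 lay below the median of all genes. The median over all 40 was -1.02, against -0.69 over all genes. No member was called with median-of-ratios values, on which 3.51% of all genes were called lower and 3.75% higher by limma and 2 members had an unadjusted p under 0.05. The member median was then -0.06 and the all-gene median 0.01. The count also moved with single libraries: it was 5, 5 and 4 without wild cave 1, 2 or 3, and 3, 3 and 4 without lab cave 1, 2 or 3. It was 14 and 20 without wild surface 1 or 3, which enter this comparison only through the shared estimate of spread, and 20 without wild surface 1 and 2 together.

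Wild surface livers had lower levels than lab surface livers for 8 members (acadm, acadvl, acad11, etfa, acaa1, hsd17b4, scp2a and acat1) and a higher level of acot8. The 8 are 20% of members, beside 11.2% of all genes called lower, and the 1 higher is 2.5%, beside 6.77% of all genes. Negative log2 differences were found for 38 of the 40 members, and 37 lay below the median of all genes. Over all 40 the median was -1.11, against -0.11 over all genes. Median-of-ratios values changed this little: 6 members were called lower and acot8 higher, beside 8.86% and 9.48% of all genes, and the member median was -0.97. The labels give no pairing of these 2 groups. Over all genes tested, same-numbered libraries deviated together weakly, with correlations of 0.15, 0.11 and 0.27. The members did not peak in the same number: wild surface 3 was highest for 33, but lab surface 2 for 36 and lab surface 3 for 2. If the numbers are taken as pairs, with the replicate number as a block, 11 members were called, which added ehhadh and acsl4a. The wild surface libraries were far from alike, and the count moved with the library left out: it was 23 without wild surface 3, 3 without wild surface 1, 3 without wild surface 2, 3 without lab surface 2 and 4 without lab surface 3. Whether the share of all genes called moved alike is not shown here. With wild surface 3 alone in its group limma called 0 members, 3 had an unadjusted p under 0.05, and the member median relative to all genes was 0.06.

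A dependence of the form difference on environment was called for 1 member, acot8. The interaction, which is the cave minus surface log2 difference in wild fish minus that in lab fish, was called lower for acot8 and higher for none, beside 4.19% and 0.892% of all genes. It was positive for 26 members and above the median of all genes for 33, with a median of 0.29 over members and -0.61 over all genes. With median-of-ratios values limma called 0 members (4 had an unadjusted p under 0.05), beside 0.659% of all genes called lower and 1.44% higher. On that scale the interaction was positive for 35 members and above the median of all genes for 37. Its median was 0.98 over members and -0.02 over all genes. Without wild surface 3 the count was 5, and with wild surface 3 alone in its group it was 0, with 6 members at an unadjusted p under 0.05.

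**Figure D3:**
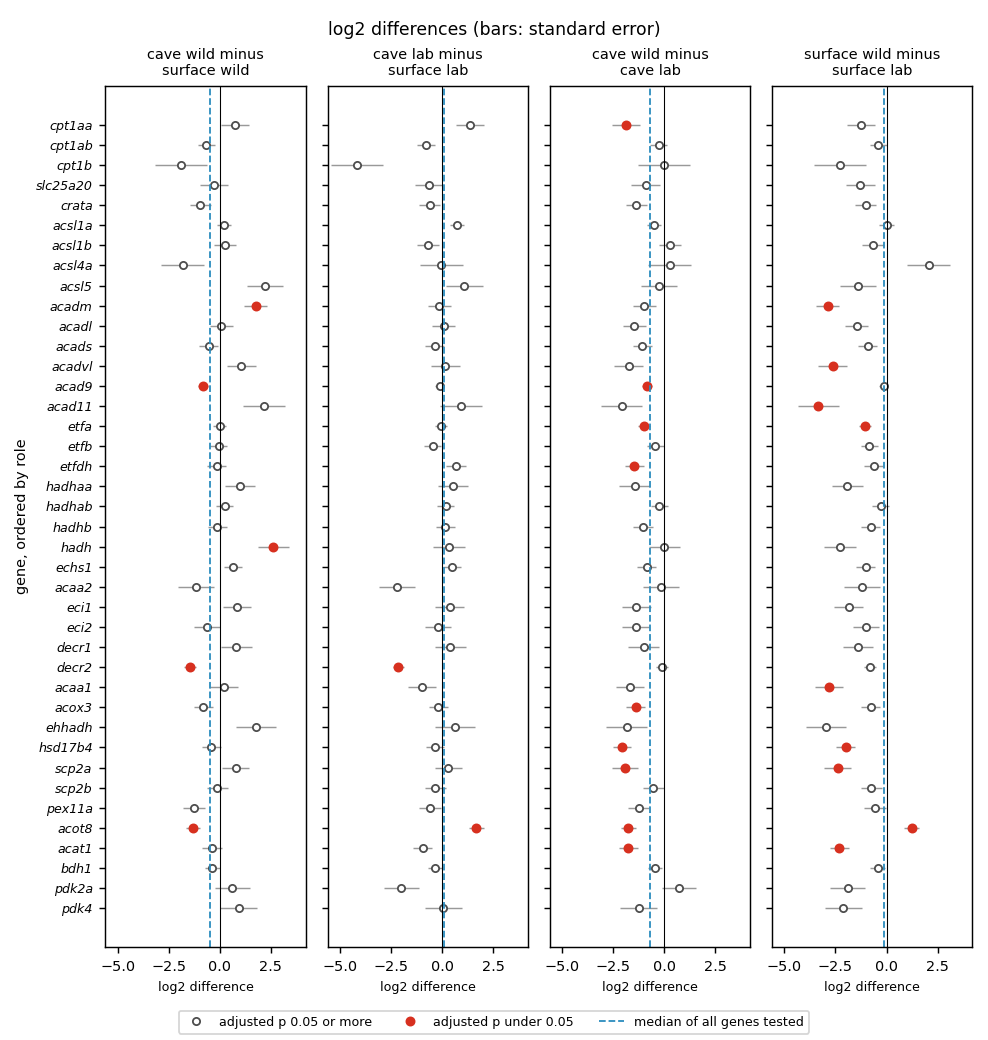
Log2 difference of each tested member in the 4 comparisons of groups on the log2(TPM + 1) scale, with members by role and called members marked. Most members lie left of 0 in both comparisons of wild with lab fish, and decr2 lies left of 0 in both comparisons of cave with surface fish. Of the 40 members, 26 lie left of the median of all genes in cavefish and 37 in surface fish when wild is compared with lab.

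Complete separation was about as frequent among the 40 members as among all genes. On TPM it held for 1 of 40 members between forms and 4 of 40 between environments. When all 6 cave libraries were set against all 6 surface libraries, decr2 was below in cave without overlap and no member was above, beside 2.32% of all genes below and 1.51% above. decr2 passed the filter on low genes only through its surface libraries. When the 6 wild libraries were set against the 6 lab libraries, etfa, acadm, hsd17b4 and acadvl were below in wild without overlap and none was above, beside 10.0% and 0.233% of all genes. After median-of-ratios scaling decr2 still separated cave from surface (1.91% of all genes below, 2.98% above), and hsd17b4 was the 1 member that still separated wild from lab (2.73% below, 3.07% above).

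The carnitine shuttle carries long-chain acyl groups across the inner mitochondrial membrane, and its entry step is carnitine palmitoyltransferase 1, encoded here by cpt1aa, cpt1ab and cpt1b. In mammals CPT1A is the liver form and CPT1B the muscle form. cpt1aa had 8.24, 11.8 and 5.27 TPM in wild cave libraries, 1.5, 4.48 and 10.6 TPM in wild surface libraries, 38, 24.1 and 35.9 TPM in lab cave libraries and 5.03, 39.5 and 7.8 TPM in lab surface libraries. All 3 wild cave values lay below all 3 lab cave values, and the log2 difference of -1.87 ± 0.68 (SE, adjusted p = 0.0489) was just past the threshold. It did not hold on median-of-ratios values, at -0.95 (adjusted p = 0.387), with a pseudocount of 0.1 (adjusted p = 0.0617) or without the filter on low genes (adjusted p = 0.0897), nor without any of the 3 wild cave libraries, any of the 3 lab cave libraries, wild surface 2 or lab surface 3 (adjusted p = 0.0545 to 0.141). The lab forms differed for cpt1aa past the threshold only when lab surface 2 was left out, at a log2 difference of 2.2 (adjusted p = 0.0435). The surface groups overlapped for cpt1aa, with a log2 difference of -1.25 ± 0.68 (SE, adjusted p = 0.206).

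cpt1b, the muscle-type gene (ENSAMXG00000012885), varied widely among surface fish. It had 0.33, 0.13 and 2.45 TPM in wild cave libraries, 0.55, 5.87 and 24.2 TPM in wild surface libraries, 2.07, 0.42 and 0.22 TPM in lab cave libraries and 33.2, 235 and 2.85 TPM in lab surface libraries. Levels stayed at or under 2.45 TPM in all 6 cave libraries and ranged over 0.55 to 235 TPM in surface libraries, with lab surface 2 far above the rest. With all libraries neither form difference passed the test: the log2 difference was -1.90 ± 1.26 (SE, adjusted p = 0.263) in wild fish and -4.17 ± 1.26 (SE, adjusted p = 0.0695) in lab fish. Without lab surface 3 the lab difference passed, at a log2 difference of -5.69 (adjusted p = 0.00923). As a share of the summed cpt1 level, cpt1b made up 0.561 to 21.5% in cave libraries and 8.72 to 81.4% in surface libraries. cpt1aa made up 46.1 to 91.6% in cave libraries and 11.6 to 55.8% in surface libraries. It led in every cave library and in lab surface 3, at 55.8%. cpt1ab, also a liver-type copy, led in wild surface 1 at 67.5%, and cpt1b led in the other surface libraries. Of 16 listed muscle genes 11 were found, none was high enough to test, and their sum was 14.7 TPM in lab surface 1 and at most 1.05 TPM in any other library, including lab surface 2 at 0.12 TPM. A list of adipocyte genes was summed as well. Of 10 listed genes 7 were found, and their sum was 280.1 to 387 TPM in wild cave, 389.9 to 709 TPM in wild surface, 355 to 399 TPM in lab cave and 793 to 10459.6 TPM in lab surface libraries. The lab surface sum was mostly fabp11a, a fatty acid-binding protein, at 1988, 10108 and 549 TPM in lab surface libraries, while lepb was at 0 and adipoqb at or under 0.12 TPM in every library. The other listed genes did not all share that order: lepa, a leptin, was at 108, 251 and 21.3 TPM in wild surface libraries, against 12.2, 15.2 and 0.36 TPM in lab surface libraries, and pparg, a receptor of fat cell differentiation, was at 25.6, 23.1 and 19.7 TPM in lab cave libraries, against 7.71, 15.3 and 12 TPM in lab surface libraries. cidec was at 36.1, 99.8 and 47.85 TPM in lab surface libraries, against 61.15, 34 and 34.35 TPM in lab cave libraries. lpl was at 379, 221 and 183 TPM in lab surface libraries, against 137, 236 and 188 TPM in lab cave libraries. Like fabp11a, cidec was highest of all libraries in lab surface 2, and lpl was highest in lab surface 1. The part of such cells in the cpt1b values was not tested.

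**Figure D4:**
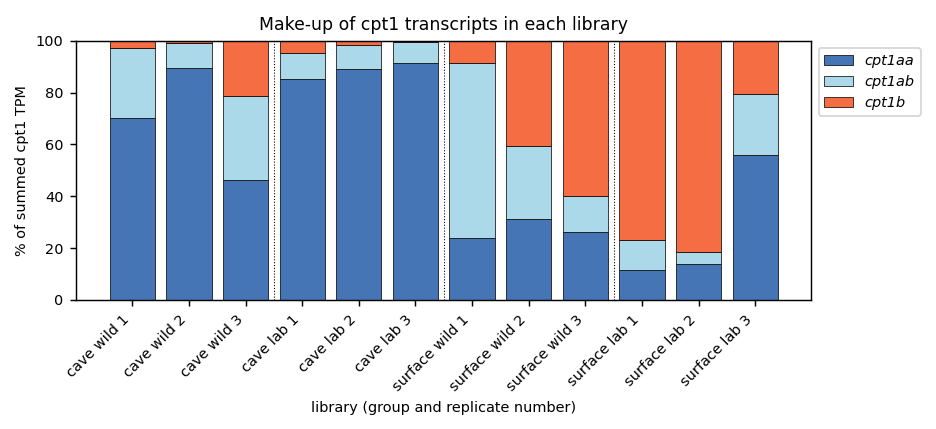
Share of the summed TPM of cpt1aa, cpt1ab and cpt1b held by each gene in each library. cpt1aa holds 46.1 to 91.6% in cave libraries, and cpt1b reaches 76.8 and 81.4% in lab surface 1 and 2.

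The other shuttle genes passed no test. crata, a carnitine acetyltransferase that buffers short acyl groups and has the highest mean of this role, had 12.1, 6.82 and 19.8 TPM in wild cave libraries, 48, 23.7 and 29.7 TPM in lab cave libraries, 11.5, 26.2 and 43.9 TPM in wild surface libraries and 46.4, 74 and 35.4 TPM in lab surface libraries. Wild cave libraries were all below lab cave libraries on TPM, with a log2 difference of -1.38 ± 0.52 (SE, adjusted p = 0.0555). With median-of-ratios values these groups overlapped, at -0.44 (adjusted p = 0.65). cpt1ab, the second liver-type copy, ran from 1.23 to 5.54 TPM in 11 libraries and reached 14.3 TPM in lab surface 2. slc25a20, the carnitine-acylcarnitine carrier of the inner membrane, ran from 2.02 to 53.2 TPM with the same library on top.

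Acyl-CoA synthetases activate fatty acids by joining them to coenzyme A, and here they varied widely between libraries of 1 group. acsl4a, which in mammals prefers arachidonic acid and has the highest mean of this role, had 11.1, 23 and 2.59 TPM in wild cave libraries, 159, 33.8 and 7.25 TPM in wild surface libraries, 24.9, 4.73 and 3.11 TPM in lab cave libraries and 16.2, 7 and 3.68 TPM in lab surface libraries. Wild surface 1 stood far above the rest, and within each group the 3 values differed several-fold. The log2 difference between wild and lab surface libraries was 2.05 ± 1.04 (SE, adjusted p = 0.179), and 2.05 ± 0.61 (SE, adjusted p = 0.0439) with the replicate block. acsl5 had 4.2, 13.5 and 2.83 TPM in wild cave libraries and 0.11, 0.11 and 1.25 TPM in wild surface libraries, and these groups did not overlap. Its log2 difference was 2.23 ± 0.88 (SE, adjusted p = 0.0704) on TPM and 2.76 (adjusted p = 0.0489) on median-of-ratios values. In the lab the forms overlapped for acsl5, with 0.87, 17.5 and 13.2 TPM in lab cave libraries, against 4.97, 0.16 and 6.28 TPM in lab surface libraries. acsl1a and acsl1b stayed at or under 2.19 and 4.99 TPM, and no difference in either was called.

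Acyl-CoA dehydrogenases make the first double bond of each oxidation round, each enzyme on its own chain lengths. acadm, the medium-chain enzyme (ENSAMXG00000006276), had 215, 124 and 262 TPM in wild cave libraries, 34.3, 31.4 and 159 TPM in wild surface libraries, 392, 332 and 409 TPM in lab cave libraries and 273, 569 and 465 TPM in lab surface libraries. Both wild surface 1 and 2 were at about the same low level, wild surface 3 was higher, and all 3 stayed below every lab surface value. The log2 difference was 1.76 ± 0.56 (SE, adjusted p = 0.0339) between wild forms and -2.88 ± 0.56 (SE, adjusted p = 0.00842) between wild and lab surface fish. Wild cave 2, at 124 TPM, lay below wild surface 3, so the wild forms overlapped. The wild form call was lost without any of the 3 wild cave libraries or wild surface 1 or 2 (adjusted p = 0.0504 to 0.127), and the wild to lab call in surface fish was kept without any 1 library but not with wild surface 3 alone.

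acadvl, the very long-chain enzyme of the inner membrane, had 9.96, 20.5 and 136 TPM in wild surface libraries, 179, 256 and 169.7 TPM in lab surface libraries, 50.6, 62.4 and 88.6 TPM in wild cave libraries and 324, 164 and 207 TPM in lab cave libraries. On TPM lab levels were higher than wild ones in both forms, and no wild value reached a lab value. On the log2 scale the difference was -2.64 ± 0.72 (SE, adjusted p = 0.0278) in surface fish and -1.75 ± 0.72 (SE, adjusted p = 0.0729) in cavefish, of which the first was called. With median-of-ratios values the cave groups overlapped, with wild cave 3 at 129 above lab cave 2 at 120. The log2 differences were then -2.50 (adjusted p = 0.0398) in surface fish and -0.76 (adjusted p = 0.561) in cavefish. The TPM call in surface fish was lost without wild surface 1 or 2 or any of the 3 lab surface libraries (adjusted p = 0.0501 to 0.101). acad11, which in mammals acts on 4-hydroxy and long-chain acyl-CoAs, had 0.58, 0.88 and 26.3 TPM in wild surface libraries, against 10.6, 118 and 59.7 TPM in lab surface libraries. Wild surface 1 and 2 were under 1 TPM while wild surface 3 exceeded lab surface 1, so the groups overlapped. In log2 terms the difference was -3.34 ± 1.02 (SE, adjusted p = 0.0413) on TPM and -3.16 (adjusted p = 0.0514) on median-of-ratios values, and on TPM it was lost without any of the 3 wild cave libraries, any of the 3 lab cave libraries, wild surface 1 or 2 or lab surface 2 or 3 (adjusted p = 0.0509 to 0.15). Cavefish had 9.98, 25.9 and 24.2 TPM in wild cave libraries, against 86.8, 74.8 and 84.7 TPM in lab cave libraries, with no overlap and a log2 difference of -2.09 ± 1.02 (SE, adjusted p = 0.122).

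acad9, better known as an assembly factor of respiratory complex I than as a dehydrogenase, moved little but evenly. It had 3.74, 3.11 and 3.45 TPM in wild cave libraries, 8.03, 7.09 and 5.74 TPM in wild surface libraries, 6.88, 7.37 and 6.84 TPM in lab cave libraries and 8.55, 8.77 and 6.18 TPM in lab surface libraries. The wild cave values were below those of every other library. The log2 difference was -0.84 ± 0.23 (SE, adjusted p = 0.0219) from wild surface and -0.86 ± 0.23 (SE, adjusted p = 0.0165) from lab cave libraries. With median-of-ratios values these were -0.28 (adjusted p = 0.357) and -0.03 (adjusted p = 0.95). On TPM the first was lost without wild cave 2 or 3 or wild surface 1 or 2 (adjusted p = 0.0567 to 0.0711) and the second without lab cave 2 (adjusted p = 0.0581). acadl, the long-chain enzyme, and acads, the short-chain one, ran from 16.2 to 161 TPM and from 3.37 to 21.9 TPM, and no difference in either was called.

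Electron transfer flavoprotein, made of the etfa and etfb products, takes electrons from all the acyl-CoA dehydrogenases, and etfdh hands them to ubiquinone. etfa had 186, 162 and 109 TPM in wild cave libraries, 349, 271 and 288 TPM in lab cave libraries, 133, 135 and 188 TPM in wild surface libraries and 321, 325 and 285 TPM in lab surface libraries. Wild libraries were below lab libraries in both forms, by nearly the same amount. On the log2 scale the difference was -1.01 ± 0.30 (SE, adjusted p = 0.0227) in cavefish and -1.04 ± 0.30 (SE, adjusted p = 0.0341) in surface fish. With median-of-ratios values the log2 difference was -0.02 (adjusted p = 0.985) in cavefish and -0.90 (adjusted p = 0.081) in surface fish. On TPM the calls were lost without wild cave 3 or any of the 3 lab cave libraries (adjusted p = 0.0508 to 0.0892) in cavefish and without lab cave 2 or 3, wild surface 1 or 2 or any of the 3 lab surface libraries (adjusted p = 0.0526 to 0.105) in surface fish. etfdh had 23.6, 21.7 and 32.7 TPM in wild cave libraries, against 75.5, 66.7 and 74.6 TPM in lab cave libraries, with no overlap, and a log2 difference of -1.46 ± 0.48 (SE, adjusted p = 0.033). It was not called on median-of-ratios values, at -0.49 (adjusted p = 0.562), nor without any of the 3 wild cave libraries or any of the 3 lab cave libraries (adjusted p = 0.0512 to 0.095). Surface libraries overlapped for etfdh. etfb ran from 15.4 to 64.7 TPM with no call.

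The later steps of the mitochondrial cycle add water, oxidise again and cleave. hadh, the short-chain 3-hydroxyacyl-CoA dehydrogenase (ENSAMXG00000010252), had the highest mean among them, with 163, 83.9 and 139 TPM in wild cave libraries, 10.6, 8.43 and 75.3 TPM in wild surface libraries, 109.5, 121 and 141 TPM in lab cave libraries and 42.3, 259.9 and 81.6 TPM in lab surface libraries. Wild surface 1 and 2 were the lowest of all libraries, and each wild cave value exceeded each wild surface value. The log2 difference between wild forms was 2.62 ± 0.77 (SE, adjusted p = 0.0253) on TPM and 3.29 (adjusted p = 0.0169) on median-of-ratios values. It was not called without the filter on low genes, nor without any of the 3 wild cave libraries or wild surface 1 or 2 (adjusted p = 0.0515 to 0.0972). Wild and lab surface libraries overlapped, with a log2 difference of -2.27 ± 0.77 (SE, adjusted p = 0.0583). The trifunctional protein genes, which carry the steps for long chains, were also lowest in wild surface 1, and none passed the test. hadhaa and hadhab, copies of its alpha subunit in that order, had 3.44, 6.49 and 46.9 TPM and 40.5, 60.1 and 86.2 TPM in wild surface libraries. Lab surface libraries had 25.4, 91 and 34.6 TPM of hadhaa and 75.6, 113 and 45.5 TPM of hadhab. hadhab was the larger of the pair in 11 of 12 libraries, at 48.1 to 92.2% of their sum. hadhb, the thiolase subunit, ran from 31.2 to 153 TPM, echs1, the short-chain hydratase, from 9.53 to 42.7 TPM, and acaa2, the mitochondrial thiolase, from 2.93 to 104 TPM, each highest in lab surface 2.

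Double bonds in unsaturated fatty acids need auxiliary enzymes, and one of them separated the forms in every library. decr2, the peroxisomal 2,4-dienoyl-CoA reductase (ENSAMXG00000040698), had 0.21, 0.21 and 0.19 TPM in wild cave libraries, 1.57, 1.91 and 3.78 TPM in wild surface libraries, 0.33, 0.21 and 0.38 TPM in lab cave libraries and 4.17, 7.52 and 3.29 TPM in lab surface libraries. All 6 cave libraries were at or under 0.38 TPM and all 6 surface libraries at or above 1.57 TPM. The gene thus passed the filter of 1 TPM in 3 libraries only through the surface libraries, where it is high. In log2 terms the difference was -1.45 ± 0.29 (SE, adjusted p = 0.00723) in wild fish and -2.14 ± 0.29 (SE, adjusted p = 0.000576) in lab fish. The levels in cavefish are low enough for the pseudocount of 1 to shrink these values: with 0.1 they were -2.96 and -3.58. Both calls held under every alternative in which decr2 was tested, with adjusted p of 0.00172 to 0.028 in wild fish and 0.000292 to 0.00402 in lab fish. A filter at 5 TPM removed the gene. Its mitochondrial counterpart decr1 did not follow it, with 19.7, 19.9 and 21.6 TPM in wild cave libraries, 4.14, 6.38 and 47.7 TPM in wild surface libraries, 45.6, 38.1 and 42 TPM in lab cave libraries and 13.3, 78.3 and 28.5 TPM in lab surface libraries. The forms overlapped for decr1 in wild and in lab fish and the log2 differences were 0.80 ± 0.75 (SE, adjusted p = 0.434) and 0.41 ± 0.75 (SE, adjusted p = 0.82). eci1, the mitochondrial enoyl-CoA isomerase with the highest mean of this role, had 50.7, 81.4 and 80 TPM in wild cave libraries, 200.2, 160.1 and 187 TPM in lab cave libraries, 13.7, 30.4 and 129 TPM in wild surface libraries and 64.8, 303 and 138 TPM in lab surface libraries. Its wild cave values were below its lab cave values, with a log2 difference of -1.38 ± 0.70 (SE, adjusted p = 0.14), and the surface groups overlapped at -1.84 ± 0.70 (SE, adjusted p = 0.0853). eci2, the isomerase also found in peroxisomes, ran from 15.2 to 182 TPM with no call.

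**Figure D5:**
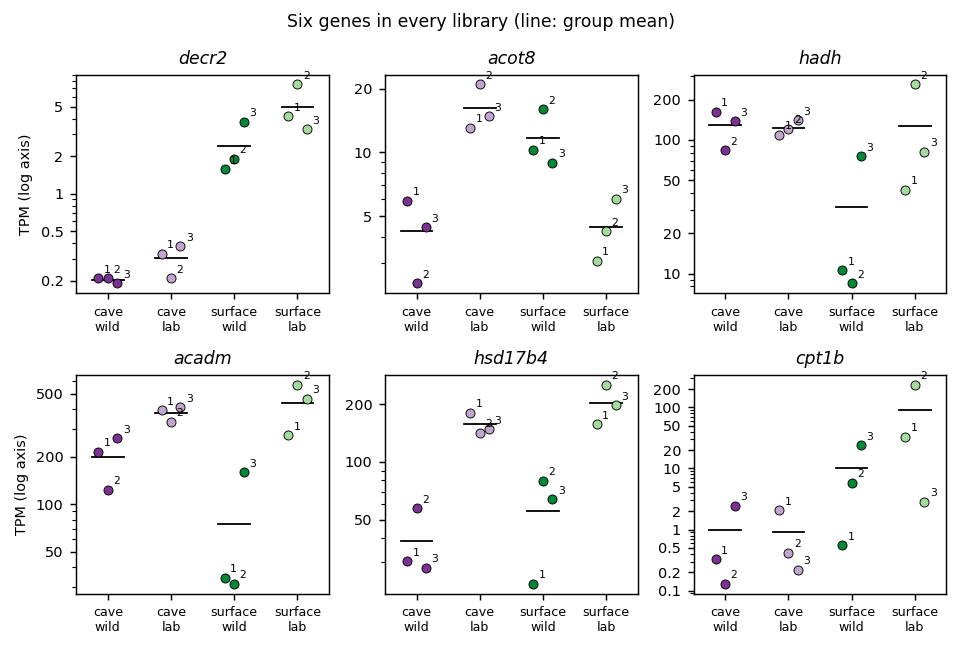
TPM on a log axis in each library for decr2, acot8, hadh, acadm, hsd17b4 and cpt1b, with group means as lines and replicate numbers beside the points. decr2 is at or under 0.38 TPM in all cave libraries and at or above 1.57 TPM in all surface libraries, while acot8 has wild cave below wild surface and lab cave above lab surface.

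Of the 8 members with a peroxisomal role, 4 were called lower in wild than in lab cavefish, beside 34.3% of all genes. In surface fish 3 of 8 were called lower, beside 11.2% of all genes, and acot8 was called higher, beside 6.77%. With median-of-ratios values none of the 8 was called between the cave groups, beside 3.51% of all genes called lower. hsd17b4, the bifunctional hydratase and dehydrogenase for very long and branched chains (ENSAMXG00000012745), had 30.4, 57.1 and 28 TPM in wild cave libraries, 181, 142 and 148 TPM in lab cave libraries, 23.1, 79.9 and 64 TPM in wild surface libraries and 157, 253 and 198 TPM in lab surface libraries. No wild library reached a lab library in either form. The log2 difference was -2.06 ± 0.46 (SE, adjusted p = 0.00691) in cavefish and -1.99 ± 0.46 (SE, adjusted p = 0.0158) in surface fish. With median-of-ratios values it was -1.09 (adjusted p = 0.165) in cavefish and -1.85 (adjusted p = 0.0215) in surface fish. Neither TPM call was lost without any 1 library, and with wild surface 3 alone in its group the surface call was lost. scp2a, whose product is the peroxisomal thiolase and sterol carrier protein and which had the highest mean of this role, had 83.9, 84.2 and 96.4 TPM in wild cave libraries, 313, 374 and 324 TPM in lab cave libraries, 26.9, 27.4 and 175 TPM in wild surface libraries and 143, 554 and 249.5 TPM in lab surface libraries. The cave groups did not overlap, and wild surface 3 exceeded lab surface 1. On the log2 scale the difference was -1.92 ± 0.65 (SE, adjusted p = 0.0385) in cavefish, which became -0.93 (adjusted p = 0.407) on median-of-ratios values, and -2.39 ± 0.65 (SE, adjusted p = 0.0292) in surface fish. These calls were lost without any of the 3 wild cave libraries or any of the 3 lab cave libraries (adjusted p = 0.0764 to 0.102) in cavefish and without wild surface 1 or 2 or lab surface 2 or 3 (adjusted p = 0.0684 to 0.11) in surface fish.

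acaa1, the peroxisomal 3-ketoacyl-CoA thiolase, had 17.6, 42.6 and 148 TPM in wild surface libraries, against 165, 729.6 and 363 TPM in lab surface libraries. The groups did not overlap, and the log2 difference was -2.84 ± 0.69 (SE, adjusted p = 0.0192). It was lost without wild surface 1 or 2 or lab surface 2 or 3 (adjusted p = 0.0527 to 0.0694). Cavefish had 52.8, 76 and 43.7 TPM in wild cave libraries, against 140.0, 231 and 177 TPM in lab cave libraries, with a log2 difference of -1.66 ± 0.69 (SE, adjusted p = 0.076). With median-of-ratios values the cave groups overlapped, at -0.67 (adjusted p = 0.587). acox3, an acyl-CoA oxidase that acts on branched chains, had 41.1, 21 and 29.3 TPM in wild cave libraries, against 65.2, 100.4 and 76.2 TPM in lab cave libraries. Its cave groups did not overlap, and the log2 difference was -1.40 ± 0.47 (SE, adjusted p = 0.0356) on TPM and -0.43 (adjusted p = 0.588) on median-of-ratios values. On TPM it was lost without any of the 3 wild cave libraries or any of the 3 lab cave libraries (adjusted p = 0.053 to 0.114). ehhadh, the second bifunctional enzyme and in mammals a classic PPAR alpha target, had 1.12, 3.09 and 54.6 TPM in wild surface libraries, against 20.3, 126 and 84.9 TPM in lab surface libraries. Wild surface 1 and 2 were lowest of all and wild surface 3 lay above lab surface 1. In log2 terms the difference was -2.97 ± 0.99 (SE, adjusted p = 0.0553), and -2.97 ± 0.82 (SE, adjusted p = 0.0345) with the replicate block. scp2b, the lesser copy of scp2a, and pex11a, which helps peroxisomes divide, ran from 3.39 to 23.5 TPM and from 1.15 to 19.8 TPM with no call.

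acot8, the peroxisomal acyl-CoA thioesterase (ENSAMXG00000003130), had form differences of opposite sign in the 2 environments. It had 5.92, 2.4 and 4.43 TPM in wild cave libraries, 10.3, 16.1 and 8.93 TPM in wild surface libraries, 13.1, 21 and 14.9 TPM in lab cave libraries and 3.07, 4.23 and 6.05 TPM in lab surface libraries. In wild fish every cave value was below every surface value, and in lab fish every cave value was above every surface value. The log2 difference between forms was -1.30 ± 0.35 (SE, adjusted p = 0.019) in wild fish and 1.68 ± 0.35 (SE, adjusted p = 0.0118) in lab fish, and the interaction was -2.98 ± 0.50 (SE, adjusted p = 0.0104). Between wild and lab libraries the log2 difference was -1.75 ± 0.35 (SE, adjusted p = 0.00452) in cavefish and 1.22 ± 0.35 (SE, adjusted p = 0.0339) in surface fish. With median-of-ratios values the signs were the same, but the wild forms overlapped. Wild cave 1 was then at 10.3, above wild surface 1 at 9.38 and wild surface 3 at 9.39. The lab forms still did not overlap. The wild form difference was then -0.73 (adjusted p = 0.186), the lab form difference 1.48 (adjusted p = 0.0389) and the interaction -2.21 (adjusted p = 0.0567). Between wild and lab libraries it was -0.89 (adjusted p = 0.166) in cavefish and 1.32 (adjusted p = 0.0338) in surface fish on those values. The interaction was called without any 1 library, and missed the threshold with wild surface 3 alone in its group, at an adjusted p of 0.0657. The wild form call was lost without wild cave 2 or wild surface 2 (adjusted p = 0.074 to 0.0756), the lab form call without lab cave 2 or lab surface 1 (adjusted p = 0.0561 to 0.0565), and the call between wild and lab surface fish without lab cave 3, wild surface 1 or 2 or lab surface 1 or 2 (adjusted p = 0.0512 to 0.114).

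Ketone metabolism was represented mainly by acat1, the mitochondrial acetoacetyl-CoA thiolase that works at the start of ketone synthesis and at the end of ketone use. acat1 (ENSAMXG00000006416) had 15.4, 7.62 and 7.17 TPM in wild cave libraries, 44.8, 23.4 and 39.6 TPM in lab cave libraries, 7.64, 10.1 and 25.8 TPM in wild surface libraries and 49.8, 89.2 and 69 TPM in lab surface libraries. All 3 wild cave values lay below all 3 lab cave values, and all 3 wild surface values lay below all 3 lab surface values. The log2 difference was -1.76 ± 0.47 (SE, adjusted p = 0.0148) in cavefish and -2.32 ± 0.47 (SE, adjusted p = 0.00985) in surface fish. On median-of-ratios values these were -0.83 (adjusted p = 0.33) and -2.18 (adjusted p = 0.0181). The cave call was lost without wild cave 3 or lab cave 1 (adjusted p = 0.0526 to 0.0544), and the surface call was kept without any 1 library and lost with wild surface 3 alone in its group. bdh1, the 3-hydroxybutyrate dehydrogenase that makes the main circulating ketone body, stayed between 0.9 and 5.51 TPM with no call. oxct1a, which codes for the enzyme that lets tissues burn ketones and is scarce in mammalian liver, was at 0.1 to 0.53 TPM. Its second copy oxct1b, taken from a list of other pathway genes and named after its values were seen, was at 66.4, 31.5 and 46.9 TPM in wild cave libraries, 321, 185 and 234 TPM in lab cave libraries, 77.4, 213 and 158 TPM in wild surface libraries and 34.8, 431 and 95.1 TPM in lab surface libraries. The log2 difference between wild and lab cave libraries for oxct1b was -2.36 ± 0.73 (SE, adjusted p = 0.0271) on TPM and -1.37 (adjusted p = 0.247) on median-of-ratios values.

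Pyruvate dehydrogenase kinases restrain glucose oxidation while fat is burnt. pdk4, a fasting-induced kinase in mammals, had 9.81, 22.9 and 23.9 TPM in wild cave libraries, 64.4, 33.2 and 37.5 TPM in lab cave libraries, 0.84, 8.14 and 55.3 TPM in wild surface libraries and 34.7, 53.8 and 38.6 TPM in lab surface libraries. Wild surface 1 and 2 were low, wild surface 3 was above every lab surface library, and no difference was called: the log2 difference was -1.25 ± 0.91 (SE, adjusted p = 0.291) between the cave groups and -2.12 ± 0.91 (SE, adjusted p = 0.118) between the surface groups. pdk2a ran from 0.55 to 35.2 TPM, lowest in wild surface 2 and highest in lab surface 2.

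Other genes of the pathway, from 6 further lists, were counted in the same fits. Of 121 listed names 95 were found and 87 tested. Between wild forms 4 were higher and 14 lower in cave libraries, and between lab forms 0 passed limma's test in either direction, with 19 at an unadjusted p under 0.05. Wild cave libraries were higher than lab cave libraries for 1 and lower for 35, and wild surface libraries were higher than lab surface libraries for 2 and lower for 20. The lower genes were 16.1% of those tested between wild forms, 40.2% between cave groups and 23.0% between surface groups, beside the 26.5%, 34.3% and 11.2% of all genes given above. With median-of-ratios values the same counts, higher and lower, were 9 and 5 between wild forms, 0 and 3 between lab forms, 1 and 2 between wild and lab cavefish and 3 and 15 between wild and lab surface fish. The lower genes were then 5.75%, 3.45%, 2.30% and 17.2% of those tested, beside 7.82%, 2.42%, 3.51% and 8.86% of all genes. The scale thus moved the count far more in cavefish than in surface fish. Among regulators, 12 of 24 tested (50%) were lower in wild than in lab cave libraries, beside 34.3% of all genes. Between surface groups 3 of 24 were lower in wild libraries, which is 12.5% and near the 11.2% of all genes. On median-of-ratios values these counts were 0 and 2. On TPM the counts among other acyl-CoA enzymes were 9 and 10 of 21 (42.9% and 47.6%). Other peroxisomal genes had 9 and 4 of 25 (36% and 16%), and carnitine synthesis and uptake genes 1 and 2 of 6 (16.7% and 33.3%). Ketone enzymes and carriers had 3 and 0 of 6 (50% and 0%), and flavin supply genes 1 and 1 of 5 (20% and 20%). Each pair stands beside 34.3% and 11.2% of all genes. With median-of-ratios values the counts were 1 and 8, 1 and 3, 0 and 2, 0 and 0, and 0 and 0 in the same order of lists. As shares, the acyl-CoA enzymes had 4.76% and 38.1%, the peroxisomal genes 4% and 12%, and the carnitine genes 0% and 33.3%. Those stand beside 3.51% and 8.86% of all genes.

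The named genes of these lists are among the 3 with the smallest adjusted p per comparison. acot13, a mitochondrial thioesterase for long-chain acyl-CoA, had 16.7, 30.1 and 31.4 TPM in wild cave libraries, 0.52, 1.86 and 7.94 TPM in wild surface libraries, 30.1, 24.5 and 30.9 TPM in lab cave libraries and 30.9, 37.1 and 27.2 TPM in lab surface libraries. Wild surface libraries were far below the 3 other groups, which overlapped. On the log2 scale the difference was 2.95 ± 0.52 (SE, adjusted p = 0.0051) between wild forms, -3.26 ± 0.52 (SE, adjusted p = 0.00379) between wild and lab surface fish, and 3.09 ± 0.74 (SE, adjusted p = 0.0397) for the interaction. The interaction of acot13 was 3.88 (adjusted p = 0.0238) on median-of-ratios values. It kept its TPM call without wild surface 3 or lab surface 2 and lost it without any other single library (adjusted p = 0.061 to 0.0879). pparab, which codes for a PPAR alpha copy, had 5.74, 4.63 and 1.99 TPM in wild cave libraries, 21.7, 7.35 and 18.2 TPM in wild surface libraries, 22.6, 37.9 and 19.5 TPM in lab cave libraries and 5.05, 10.6 and 9.35 TPM in lab surface libraries. The lowest group mean was that of wild cave libraries, at 4.12 TPM, and the highest that of lab cave libraries, at 26.6 TPM. The interaction was -3.23 ± 0.65 (SE, adjusted p = 0.0223) on TPM and -2.49 (adjusted p = 0.0805) on median-of-ratios values, and was lost without wild cave 3, lab cave 2 or lab surface 1 (adjusted p = 0.051 to 0.0597). rxraa, a partner receptor of the PPARs, had 0.54, 0.4 and 1.25 TPM in wild surface libraries, against 9.26, 11.1 and 2.86 TPM in lab surface libraries, with no overlap and a log2 difference of -2.21 ± 0.39 (SE, adjusted p = 0.00576).

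acbd5a, an acyl-CoA-binding tether of peroxisomes, had 5.32, 7.14 and 5.3 TPM in wild cave libraries, against 26.6, 40.1 and 28.8 TPM in lab cave libraries, with -2.24 ± 0.34 (SE, adjusted p = 0.00182) on TPM and -1.33 (adjusted p = 0.0168) on median-of-ratios values as log2 differences. These groups did not overlap. acad8, the isobutyryl-CoA dehydrogenase of valine breakdown, was lower in wild fish of both forms, with 6.92, 7.87 and 5.24 TPM in wild cave libraries, 29.7, 28.1 and 22.9 TPM in lab cave libraries, 11.1, 5.73 and 6.82 TPM in wild surface libraries and 26.1, 45 and 33.2 TPM in lab surface libraries. Its log2 difference was -1.87 ± 0.32 (SE, adjusted p = 0.00269) in cavefish, which became -0.96 (adjusted p = 0.0711) on median-of-ratios values, and -2.02 ± 0.32 (SE, adjusted p = 0.00352) in surface fish. pex13, part of the peroxisomal import pore, had 6.77, 7.63 and 6.37 TPM in wild cave libraries, against 25.6, 22.5 and 18.2 TPM in wild surface libraries, and rfk, the riboflavin kinase on the way to FAD, had 0.25, 0.25 and 0.29 TPM in wild cave libraries, against 1.29, 1.91 and 1.44 TPM in wild surface libraries. Both separated the wild forms without overlap. Their log2 differences were -1.53 ± 0.27 (SE, adjusted p = 0.00496) for pex13 and -1.0 ± 0.19 (SE, adjusted p = 0.00625) for rfk.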

How the data were processed

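Liver RNA of 12 samples was sequenced from TruSeq stranded mRNA libraries as 75 nt single reads, per the labels' protocols. The deposited table holds TPM values per gene; bcl2fastq 2.18, STAR 2.6.1c and RSEM (no version given) are named in the submitters' processing notes. The genome build is not given in the sources used here. Coordinates are therefore left out. TPM keeps no depth.

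Groups were taken from the labels. Genes that reached 1 TPM in 3 libraries or more (12895 of 27420) were tested with limma 3.58.1 in R 4.3.3 on log2(TPM + 1). The fit had 4 group means over all 12 libraries, a mean-variance trend and 8 residual degrees of freedom. Tests were two-sided, and Benjamini-Hochberg adjustment ran over all 12895 genes within each of 5 contrasts, with a threshold of 0.05. A fold change on this scale understates the change of genes with low values. Same-numbered wild and lab surface libraries deviated together weakly (correlations of 0.15, 0.11 and 0.27). No other pair of groups had correlations above 0.1 in all 3 numbers. The labels do not say that equal numbers pair libraries, so the replicate block rests on an assumption.

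Median-of-ratios factors used the 13855 genes above 0 in all libraries. The other alternatives were a replicate block, a pseudocount of 0.1, leaving out each library in turn or wild surface 1 and 2 together, and a filter at 5 TPM or none. The members and gene lists were chosen with earlier results of these data known. Values in every library are given for each member called in any contrast and for the highest of each role, and of the pathway lists for the 3 called genes with the smallest adjusted p per contrast. One of these is not reported here. Cell type lists were summed per library.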

Additional observations from a re-analysis of the deposited data

Results flagged for a closer look

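A change of the form difference with environment was called for 1 member and 2 further pathway genes, by the interaction term in limma on log2(TPM + 1). acot8 had an interaction of -2.98, with wild cave below wild surface and lab cave above lab surface in every library on TPM. On median-of-ratios values it was not called, at -2.21 (limma adjusted p = 0.0567), and the wild forms overlapped. pparab had -3.23, with every wild cave value below every wild surface value and every lab cave value above every lab surface value on TPM. On median-of-ratios values it was not called, at -2.49 (limma adjusted p = 0.0805), and the wild forms overlapped, with wild cave 1 above wild surface 2. acot13 had 3.09, with every wild cave value above every wild surface value and overlapping lab groups. It was called on median-of-ratios values too, at 3.88 (limma adjusted p = 0.0238). Its TPM call was kept without wild surface 3 or lab surface 2 and lost without any other single library. Of all genes, 4.19% were called lower and 0.892% higher for the interaction on TPM. The members had 2.5% called lower and 0% higher, and the pathway genes 1.15% in each direction. The part of cell make-up, sex or batch in these differences was not tested.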

How the results depend on the processing

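Across 26 called differences of single members and 18 alternatives, 342 results kept direction and call, 124 kept direction and lost the call, and 0 reversed. Direction could not change with either filter, with the replicate block, or when libraries outside the groups compared were left out. Those settings keep the log2 difference and move only its standard error or adjusted p, so the 0 reversals say nothing about them. Only decr2 kept both of its calls wherever it was tested, and the cause of the losses was not tested. decr2 passed the main filter only through surface libraries. Counts of called members moved as follows. Without the filter they were 3 between wild forms, 7 between cave groups and 5 between surface groups. That ended the calls of acadm and hadh between wild forms, of cpt1aa, acox3 and scp2a between cave groups, and of acad11, acot8, acadvl and scp2a between surface groups (adjusted p = 0.0511 to 0.0897), and added acsl3a between cave groups, at 0.05 TPM or less. A pseudocount of 0.1 ended 1 call, that of cpt1aa, and added acsl5 between wild forms. With the 5 TPM filter the lab form count was 1, because decr2 was no longer tested. With median-of-ratios values the cave environment count and the interaction count were both 0. Without wild surface 1 and 2 the counts were 1 between wild forms, 20 between cave groups, 0 between surface groups and 0 for the interaction, and the member median minus the all-gene median was -0.65, 0.0579 and -0.30 for wild forms, surface groups and the interaction. Leaving out each library in turn gave 1 to 15 calls between wild forms, 1 to 3 between lab forms, 3 to 20 between cave groups, 3 to 23 between surface groups and 1 to 5 for the interaction. The share of all genes called in each of these fits is not given beside them. The surface median ranged over -1.63 to -0.59. The replicate block gave 11 calls between surface groups, against 9 without it, and 6 between wild forms, against 5, adding acsl4a there, and changed no other call. TPM gives no depth, so no limit of detection can be stated, and 3 libraries a group with wide spread in surface fish limit what can be called.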
